A study of Mus musculus with 16 samples.

Results

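The 9 genes described here encode transcription factors that set up and hold the hepatocyte programme: Hnf4a, Foxa1, Foxa2, Foxa3, Prox1, Onecut1, Cebpa, Nr1h4 and Nr5a2. They were taken by symbol from the value table, out of 19934 genes with a symbol of their own. Each was paired with 1 probe set, so no choice between probe sets arose. All 9 passed the filter on dim probe sets, on 16 of 16 arrays. Nr1h4 lay closest to the dim level of 3.74 on the log2 scale, at 3.76 on its lowest array.

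Hepatocytes arise from foregut endoderm, where the pioneer factors FOXA1 and FOXA2 open liver chromatin before liver genes are read. HNF4A, a nuclear receptor, then drives the plasma protein and metabolic genes, and PROX1, ONECUT1 (HNF6) and CEBPA act with it as hepatoblasts leave the endoderm, choose between hepatocyte and bile duct fates and mature. NR1H4 (FXR) senses bile acids and NR5A2 (LRH-1) governs genes of bile acid synthesis. In the midgestation embryo these cells share the liver with a much larger population of blood cells.

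The 16 arrays measured total RNA from single-cell suspensions of mouse fetal liver at embryonic day (E) 12.5 and 14.5. At each stage the embryos were wild type (WT), carried the ERG transgene (ERG, labelled ERG Tg), carried the GATA1s knock-in allele (GATA1s, labelled WT/GATA1s), or carried both (ERG/GATA1s). Every one of the 8 groups had 1 array labelled female and 1 labelled male. GATA1s is the short isoform of the X-linked blood factor GATA1, and ERG is an ETS factor active in blood stem cells and megakaryocytes. The sources used here do not give the transgene's promoter, the strain or the number of GATA1s copies in females. The labels name no separate litters and do not say whether embryos were pooled, so a p-value covers only the spread between these samples.

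Signal is on the log2 scale throughout, so a difference of 1 is a doubling. Array medians lay between 4.79 and 4.94 over all probe sets. Over the units tested they were 5.69 to 5.84 at E12.5 and 5.85 to 5.97 at E14.5, so the stages did not overlap. The median residual SD over all genes was 0.1615 with 7 residual degrees of freedom. The number of arrays limits the precision. Albumin (Alb) and alpha-fetoprotein (Afp), which define fetal hepatocytes, were far above the dim level on all arrays, from 10.95 to 12.22 and from 10.04 to 12.02. Xist and Y-linked signal went against the labelled sex on 3 arrays: those labelled male in the E12.5 GATA1s and E12.5 ERG/GATA1s groups, and the one labelled female in the E14.5 ERG/GATA1s group. On 2 more labelled male, those of E12.5 WT and E14.5 ERG, both were raised, with Xist at 9.35 and 10.03 and mean Y-linked signal at 4.95 and 5.27. Results that rest on the 3 or on these 2 are given with and without them, and a fit without the 2 was added after the values were seen. The 2 E14.5 WT arrays also stood apart from each other, with a mean plasma protein signal of 9.22 in the female and 9.99 in the male. In bulk RNA, fewer hepatocytes and less RNA per hepatocyte cannot be told apart.

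RefSeq promoter windows (GRCm38.p6) were found for all 9 genes, 14 windows in all, each running from 250 bases before to 50 bases after an annotated start. The 4 genes whose signal more than doubled between the stages are shown with the 250 bases before their starts, and Foxa1, whose signal did not pass the test, stands beside them. The Hnf4a windows lie before its upstream start (chr2:163506607-163506856, plus strand) and its downstream start (chr2:163546905-163547154, plus strand). The others are Foxa3 (chr7:19023540-19023789, minus strand), the first window of Prox1 (chr1:190170828-190171077, minus strand), the first window of Nr5a2 (chr1:136960449-136960698, minus strand) and Foxa1 (chr12:57546112-57546361, minus strand). Capitals mark matches on either strand to 9 short words. For GATA factors, which bind in blood and endoderm alike, the searched word was AGATAA and its close variant was TGATAA. The forkhead word of the FOXA factors was TNTTTAC, with any base at N. For HNF1, a homeodomain factor of liver and kidney, the word was GTTAAT, which is 1 arm of its palindromic site and not the whole, and for the ONECUT factors it was ATTGAT. The C/EBP word was TTGCNNAA, the HNF4 word was CAAAGTCC and the NR5A word was CAAGGTCA. The last was the TATA box, as TATAAA.
Hnf4a upstream start: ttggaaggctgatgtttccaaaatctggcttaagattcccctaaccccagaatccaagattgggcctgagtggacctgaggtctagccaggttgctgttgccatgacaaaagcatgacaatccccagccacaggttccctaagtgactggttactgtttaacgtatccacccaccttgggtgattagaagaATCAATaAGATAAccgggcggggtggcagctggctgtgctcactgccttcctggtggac
Hnf4a downstream start: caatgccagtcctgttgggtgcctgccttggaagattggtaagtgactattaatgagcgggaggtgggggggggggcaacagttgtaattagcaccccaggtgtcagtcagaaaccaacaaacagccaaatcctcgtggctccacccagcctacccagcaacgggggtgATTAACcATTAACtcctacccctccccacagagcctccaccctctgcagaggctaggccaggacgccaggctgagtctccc
Foxa3: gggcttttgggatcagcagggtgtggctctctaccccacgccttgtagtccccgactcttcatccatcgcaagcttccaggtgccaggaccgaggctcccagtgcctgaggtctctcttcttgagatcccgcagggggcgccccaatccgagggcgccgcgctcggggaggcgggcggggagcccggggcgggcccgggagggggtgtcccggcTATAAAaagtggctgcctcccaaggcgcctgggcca
Prox1: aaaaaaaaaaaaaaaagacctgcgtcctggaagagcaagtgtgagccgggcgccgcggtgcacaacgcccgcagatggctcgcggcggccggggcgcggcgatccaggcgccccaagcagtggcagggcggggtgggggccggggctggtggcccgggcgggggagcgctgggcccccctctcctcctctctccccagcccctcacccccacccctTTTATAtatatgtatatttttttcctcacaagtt
Nr5a2: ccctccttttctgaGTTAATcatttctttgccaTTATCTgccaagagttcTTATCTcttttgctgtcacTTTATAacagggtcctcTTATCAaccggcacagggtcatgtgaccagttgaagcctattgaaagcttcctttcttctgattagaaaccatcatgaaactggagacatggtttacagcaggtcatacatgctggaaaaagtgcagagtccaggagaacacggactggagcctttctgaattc
Foxa1: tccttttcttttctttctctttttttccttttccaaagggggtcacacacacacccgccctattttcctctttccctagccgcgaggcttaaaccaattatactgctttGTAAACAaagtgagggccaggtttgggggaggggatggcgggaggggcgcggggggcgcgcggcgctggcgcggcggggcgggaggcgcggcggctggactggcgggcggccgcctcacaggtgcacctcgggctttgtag

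The upstream Hnf4a window held AGATAA at -52 and an ONECUT word at -59, counted from the start with -1 as the base before it. The downstream window had neither and held the HNF1 arm at -81 and again at -74. The Nr5a2 window shown held 3 GATA words, at -217, -200 and -164, with an HNF1 arm at -236 and TATAAA on the other strand at -181. The second Nr5a2 window, not shown, held TGATAA at -5 and the C/EBP word at -243. Foxa3 had TATAAA at -36 and Prox1 had it on the other strand at -34. In the Foxa1 window the FOXA word stood at -141.

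Over all 32851 windows of the same length, 18.6% held a GATA word, 12.4% the FOXA word, 7.1% the HNF1 arm, 7.54% the ONECUT word, 10.8% the C/EBP word and 13.6% TATAAA. Of the 14 windows of these genes, 5 held a GATA word, in Hnf4a, Foxa2, Nr1h4 and Nr5a2. The HNF4 and NR5A words occurred in 1.42% and 1.56% of all windows and in none of these 14, which says only that those letters are not there. The windows ranged from 42.0% GC in the Nr5a2 window shown to 73.0% in Onecut1, against a median of 52.7% over all windows. No matches overlapped in these windows, and no array value bears on whether any of them is bound.

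Between E12.5 and E14.5 the hepatocyte factors did not move as 1 block. Foxa3, Prox1, Nr5a2 and Hnf4a rose by 2.14 to 3.17 fold, Cebpa, Nr1h4 and Onecut1 by 1.2 to 1.27 fold, Foxa2 fell slightly and Foxa1 did not pass the test. The stage comparison averaged the 4 genotypes, 8 arrays against 8, in limma with labelled sex as a covariate. It called 8 of the 9 genes at an adjusted p under 0.05, 7 higher and 1 lower, against 56.2% of all 16258 test units in either direction, 29% higher and 27.2% lower. Their median change was 0.35, beside -0.03 for all units.

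**Figure D1:**
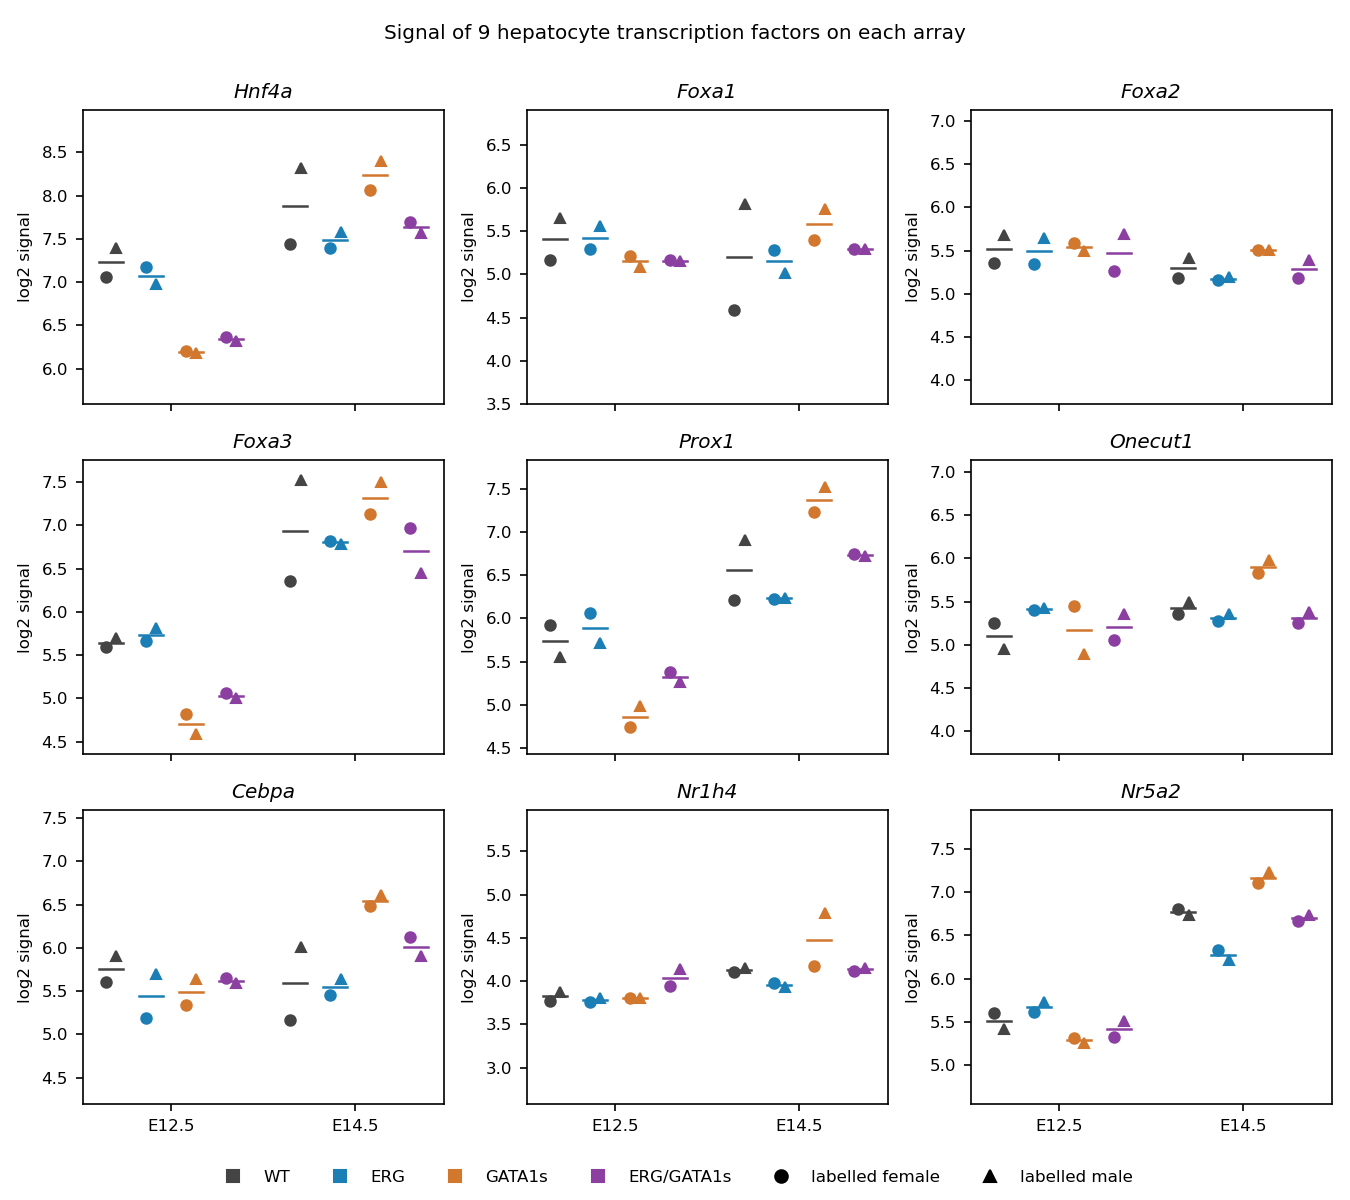
Log2 signal (vertical axis) of each gene on every array, by stage and genotype, with circles for arrays labelled female, triangles for those labelled male and a line at the mean of each pair. Foxa3, Prox1 and Nr5a2 show no overlap between E12.5 and E14.5, while Foxa1 spreads from 4.59 to 5.81 within the E14.5 WT pair alone.

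Hnf4a, the nuclear receptor at the centre of the network, read 7.06 in the WT female and 7.40 in the WT male at E12.5. The ERG pair, female first as in all that follow, gave 7.17 and 6.98, the GATA1s pair 6.20 and 6.18, and the ERG/GATA1s pair 6.37 and 6.32. At E14.5 the same order of arrays gave 7.44 and 8.32 for WT, 7.39 and 7.58 for the ERG pair, 8.07 and 8.40 for GATA1s alone, and 7.70 and 7.57 for ERG/GATA1s. The 4 GATA1s-carrying arrays were lowest at E12.5, and the E14.5 GATA1s mean was the highest of all 8 groups, though its pair overlapped the E14.5 WT pair. Hnf4a rose by 1.10 ± 0.11 (SE; limma, adjusted p = 1.78e-06) between stages and was higher at E14.5 in each of the 8 pairs matched on genotype and labelled sex. The stages touched only through the E12.5 WT male, at 7.40, and the E14.5 ERG female, at 7.39.

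The 3 FOXA factors, which share a DNA-binding domain and bind similar sites, parted company. Foxa3, the member that stays most abundant in the maturing liver, read 5.59 and 5.70 at E12.5 for WT, 5.66 and 5.81 for the ERG pair, 4.82 and 4.59 for GATA1s alone, with the ERG/GATA1s female at 5.06 and the male 0.06 below it. By E14.5 it read 6.36 and 7.52 for WT, 6.82 and 6.79 for the ERG pair, 7.13 and 7.50 for GATA1s alone, and 6.97 and 6.45 for ERG/GATA1s. Every E14.5 array lay above every E12.5 array, a separation also seen for Prox1 and Nr5a2, so for 3 of the 9 genes, against 13.2% of all units. Foxa3 rose by 1.66 ± 0.14 (adjusted p = 5.15e-07), the largest change among the 9.

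Foxa1, a pioneer factor of early endoderm, ranged from 5.09 to 5.65 at E12.5 (median 5.19) and from 4.59 to 5.81 at E14.5 (median 5.29). Both extremes at E14.5 came from the WT pair, at 4.59 and 5.81. Its change of 0.02 ± 0.13 (adjusted p = 0.91) had no stable sign and was -0.13 once each array was centred on its median. Foxa2, the other pioneer factor, ranged from 5.26 to 5.69 at E12.5 (median 5.54) and from 5.16 to 5.51 at E14.5 (median 5.29). It fell by 0.19 ± 0.07 (adjusted p = 0.0378), with 1 of 8 pairs going up. That call was lost when any 1 of 10 arrays was left out, all those of the male label except E12.5 GATA1s, plus the females of E12.5 GATA1s, E14.5 WT and E14.5 ERG/GATA1s (adjusted p up to 0.109).

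Prox1 is a homeodomain factor that hepatoblasts need in order to spread into the liver bud. At E12.5 its signal was 5.92 and 5.56 for WT, 6.06 and 5.72 for the ERG pair, 4.74 and 4.99 for GATA1s alone, and 5.38 and 5.26 for ERG/GATA1s. By E14.5 the WT pair stood at 6.21 and 6.91, the ERG pair at 6.23 and 6.24, the GATA1s pair at 7.23 and 7.52 and the ERG/GATA1s pair at 6.75 and 6.72. The GATA1s pair was thus the lowest of the 8 groups at the first stage and the highest at the second. In each case it was clear of its nearest neighbour, a gap not counted over all units. Prox1 rose by 1.27 ± 0.11 between stages (adjusted p = 5.28e-07, 8 of 8 pairs). Endothelial markers also rose between stages: 8 of 12 were called higher and 1 lower. Sinusoidal Stab2 was up by 1.72 and Lyve1, shared with lymphatic vessels, by 1.51. The list's mean was 6.05 to 6.39 at E12.5 and 6.55 to 6.93 at E14.5. Within stages, Prox1 had a Pearson r of 0.149 with that mean at E12.5 and 0.088 at E14.5. With the mean plasma protein signal r was 0.896 and 0.921. Whether endothelial cells had a part in the Prox1 change was not tested.

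Onecut1, which acts in the choice between hepatocyte and bile duct fate, ranged from 4.89 to 5.45 at E12.5 and from 5.25 to 5.98 at E14.5, with both top values, 5.83 and 5.98, in the E14.5 GATA1s pair. It rose by 0.27 ± 0.09 (adjusted p = 0.0228, 6 of 8 pairs). The call was lost without any 1 of the males of E12.5 WT, E12.5 GATA1s, E14.5 ERG, E14.5 GATA1s and E14.5 ERG/GATA1s (adjusted p up to 0.0657).

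Cebpa, a leucine zipper factor that restrains proliferation in maturing hepatocytes, is also a factor of granulocyte precursors. Its E12.5 values were 5.60 and 5.91 for WT, 5.19 and 5.70 for the ERG pair, 5.34 and 5.64 for GATA1s alone, and 5.65 and 5.59 for ERG/GATA1s. Its E14.5 values were 5.17 and 6.01 for WT, 5.46 and 5.64 for the ERG pair, 6.48 and 6.61 for GATA1s alone, and 6.13 and 5.90 for ERG/GATA1s. Above the highest E12.5 value of 5.91 lay both E14.5 GATA1s arrays, the E14.5 ERG/GATA1s female and the E14.5 WT male. Over all genotypes Cebpa rose by 0.35 ± 0.10 (adjusted p = 0.0101, 6 of 8 pairs). Of the granulocyte and monocyte markers, 13 of 17 were called lower and 3 higher. Whether those cells had a part in the Cebpa change was not tested.

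Of the nuclear receptors of bile acid metabolism, Nr5a2 gave the most even result. It read 5.60 and 5.42 at E12.5 for WT, 5.61 and 5.73 for the ERG pair, 5.31 and 5.26 for GATA1s alone, and 5.33 and 5.51 for ERG/GATA1s. At E14.5 it read 6.80 and 6.73 for WT, 6.33 and 6.22 for the ERG pair, 7.10 and 7.23 for GATA1s alone, and 6.67 and 6.74 for ERG/GATA1s. Both arrays of each pair sat close together, also in E14.5 WT, where 0.07 parted Nr5a2 but 0.88 parted Hnf4a and 1.16 parted Foxa3. Nr5a2 rose by 1.26 ± 0.07 (adjusted p = 1.08e-08), with the smallest error of the 9. Nr1h4, the bile acid sensor, ranged from 3.76 to 4.14 at E12.5 and from 3.93 to 4.79 at E14.5 and rose by 0.31 ± 0.08 (adjusted p = 0.00429, 8 of 8 pairs), at signals so near the dim level that the stricter filter removed it.

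The rises of Hnf4a, Foxa3, Prox1 and Nr5a2 passed under every alternative run, including without the 3 arrays of opposed sex markers, where they were 0.96, 1.43, 1.26 and 1.29. The calls of Foxa2, Cebpa and Nr1h4 were lost without those 3, and the calls of Foxa2 and Onecut1 without the 2 arrays of mixed sex markers. Centring each array on its median moved the median change of all genes from -0.03 to -0.18. The share of calls that were higher went from 51.6% to 29.4%, and the calls of Onecut1, Cebpa and Nr1h4 were then lost. Further quantile scaling lost the calls of Onecut1 and Cebpa. Y-linked signal in place of labelled sex lost that of Cebpa, and a fit with no sex term lost that of Foxa2.

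Within single genotypes, 2 arrays against 2, the factors separated further. In WT, Hnf4a (0.65 ± 0.21, adjusted p = 0.0456), Foxa3 (1.30 ± 0.28), Prox1 (0.82 ± 0.21) and Nr5a2 (1.26 ± 0.13) rose, 4 of 9 against 11.4% of all units called higher. In ERG only Foxa3 (1.07 ± 0.28) and Nr5a2 (0.61 ± 0.13) passed, 2 of 9 against 12.7%, and the Hnf4a and Prox1 differences were 0.41 ± 0.21 and 0.35 ± 0.21. In ERG/GATA1s the 4 genes called in WT rose again, Hnf4a by 1.29, Foxa3 by 1.68, Prox1 by 1.42 and Nr5a2 by 1.29, against 14% of all units. Without the 3 arrays of opposed sex markers, of which 2 belong to these groups, only Nr5a2 kept its call (1.43, adjusted p = 0.0206), while Hnf4a was 0.89, Foxa3 1.04 and Prox1 1.28 (adjusted p = 0.182, 0.187 and 0.108).

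In GATA1s 7 of 9 rose, against 13.8% of all units: Foxa3 by 2.61 ± 0.28, Prox1 by 2.51 ± 0.21, Hnf4a by 2.05 ± 0.21, Nr5a2 by 1.88 ± 0.13, Cebpa by 1.06 ± 0.20, Onecut1 by 0.74 ± 0.18 and Nr1h4 by 0.68 ± 0.16. In linear terms that is 6.11 fold for Foxa3 and 5.7 fold for Prox1. With arrays centred on their medians, the share of all stage calls that were higher went from 61.4% to 28.4% in GATA1s, from 64% to 31.9% in ERG/GATA1s, from 62.9% to 41.3% in WT and from 72.2% to 51.9% in ERG. Foxa1 (0.43 ± 0.26) and Foxa2 (-0.03 ± 0.15) did not pass. The Onecut1 and Nr1h4 calls were lost without the 3 arrays (adjusted p = 0.0984 and 0.076) and without the male array of either GATA1s group (adjusted p up to 0.136 and 0.141).

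**Figure D2:**
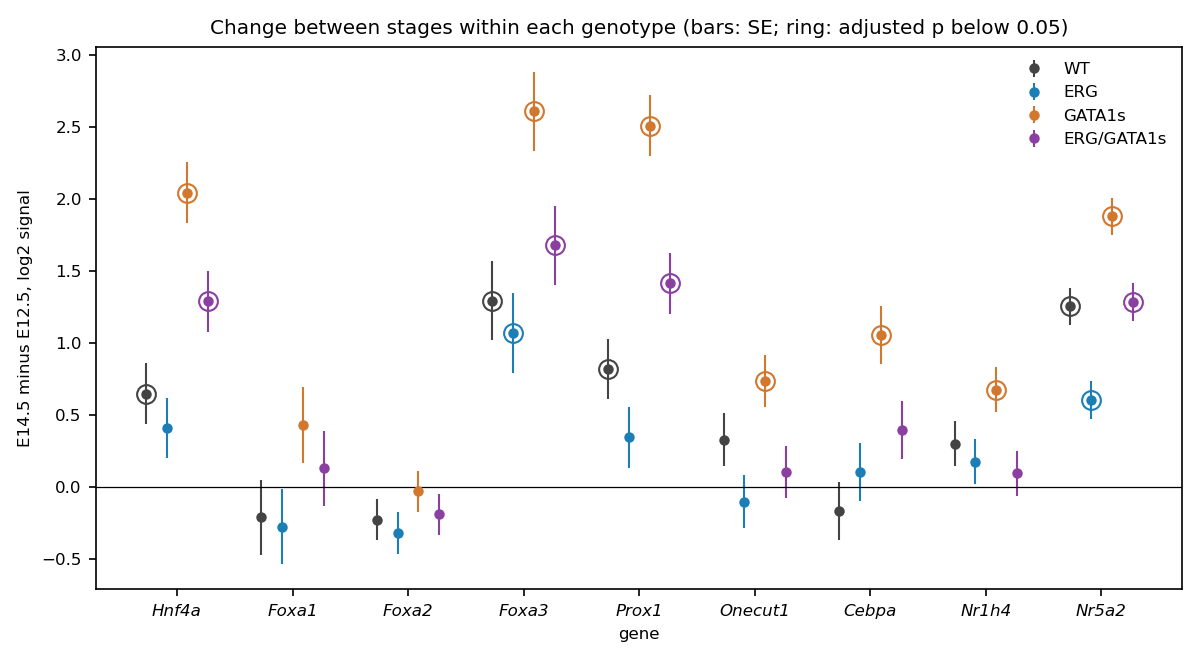
Difference between E14.5 and E12.5 in log2 signal (vertical axis) for each gene within each genotype, 2 arrays against 2; bars are SE and rings mark an adjusted p under 0.05. The GATA1s points are the highest for all 9 genes, from -0.03 for Foxa2 to 2.61 for Foxa3.

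The WT values rested on a pair that differed widely. Without the E14.5 WT male, the WT rise was 0.24 for Hnf4a, 0.70 for Foxa3 and 0.45 for Prox1, none of them called, while Nr5a2 was 1.30 and kept its call. Foxa1 was then called in WT, at -0.77 ± 0.22 (adjusted p = 0.0316). Without the E12.5 WT male the Hnf4a, Foxa3 and Prox1 calls were lost as well, and with 1 array left out the Hnf4a call in WT held only where that was an E12.5 ERG array, an E12.5 ERG/GATA1s array or the E14.5 WT female (adjusted p up to 0.476). In ERG the Foxa3 call was lost without any 1 of its 4 arrays (adjusted p up to 0.119), and the Nr5a2 call without either female. Without the 2 arrays of mixed sex markers, Nr5a2 alone was called in WT and in ERG, with Hnf4a at 0.75, Foxa3 at 1.28 and Prox1 at 0.58 in WT (adjusted p = 0.185, 0.0869 and 0.281).

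To set these rises beside the output of hepatocytes, the plasma protein genes were read on the same arrays. All 29 measured rose between stages, by 0.50 (Apoc3) to 3.49 (Apoh) with a median of 1.99, among them Apob by 2.38 ± 0.12, Itih4 by 2.69 ± 0.15, Itih1 by 1.84 ± 0.10 and the fetal albumin relative Afp by 1.18 ± 0.07. Of these 29 genes, 20 rose by more than Foxa3, 25 by more than Prox1 or Nr5a2, 26 by more than Hnf4a and 29 by more than the other members' changes. With each array's plasma protein mean subtracted, the change was -0.30 for Foxa3, -0.69 for Prox1, -0.70 for Nr5a2 and -0.86 for Hnf4a, and from -1.61 to -2.15 for the rest. That fit called 8 of the 9 lower but also 99% of all units, so the calls say nothing about these genes. With the metabolic and transport genes as the reference, the 4 leading differences turned positive, at 0.83 for Foxa3, 0.44 for Prox1, 0.42 for Nr5a2 and 0.27 for Hnf4a. That list lay near the dim level of 3.74, with a mean of 4.21 to 4.42 at E12.5. Of its 22 genes with a probe set, 16 were tested. The sign thus depends on the reference list.

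Array by array, Hnf4a followed the mean plasma protein signal with r = 0.954 over the 16 arrays, Foxa3 with 0.973, Prox1 with 0.954 and Nr5a2 with 0.932. Within E14.5 alone, over 8 arrays, r was 0.937 for Hnf4a and 0.936 for Cebpa but 0.661 for Nr5a2. Foxa1 and Foxa2 gave 0.821 and 0.778 there. Within E12.5 Cebpa gave -0.05 and Foxa2 gave -0.29, while Hnf4a gave 0.932. The arrays share stage and genotype, so the coefficients describe them and carry no p.

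**Figure D3:**
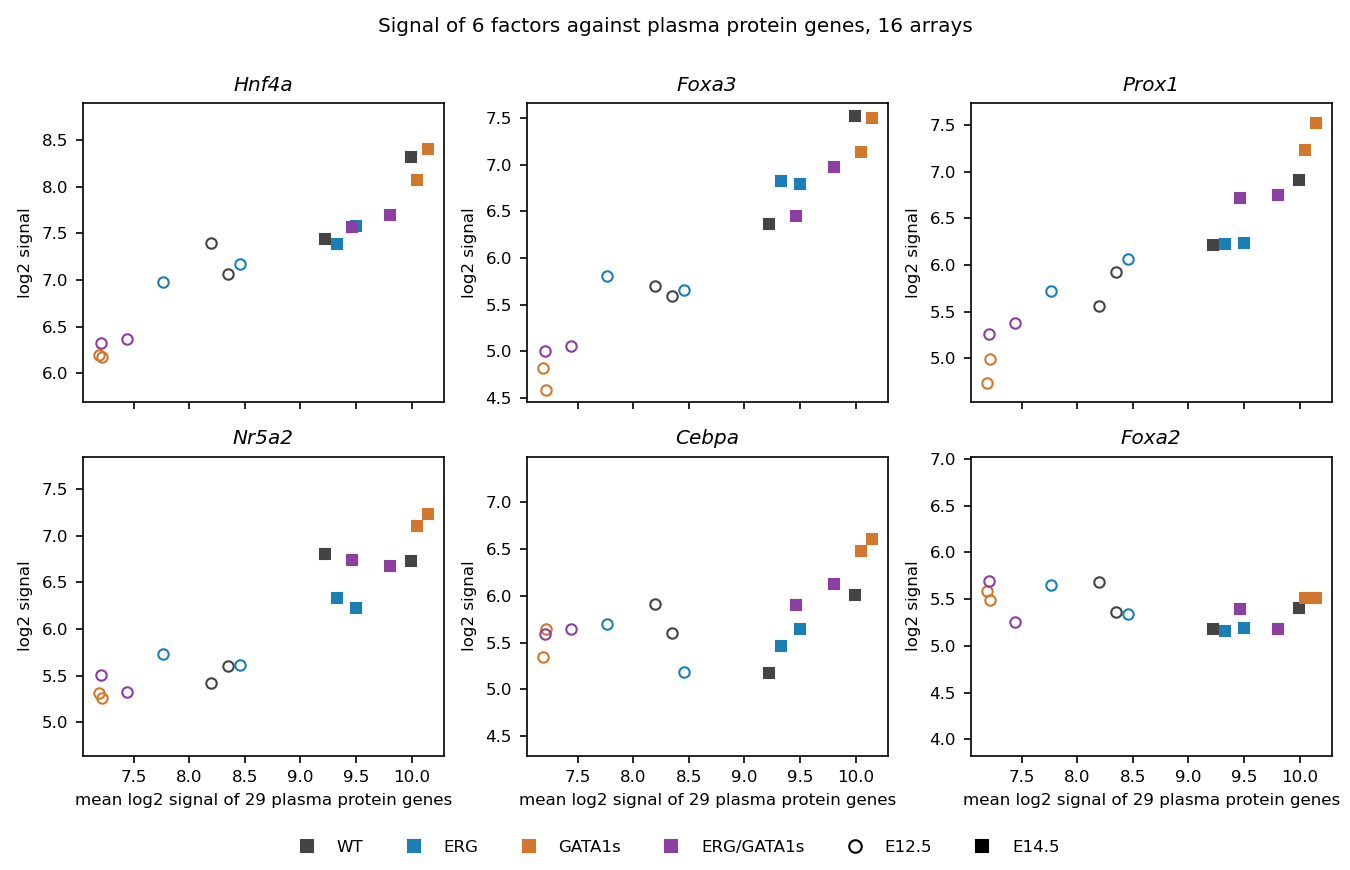
Log2 signal of 6 factors (vertical axes) against the mean log2 signal of 29 plasma protein genes (horizontal axes) on the 16 arrays, open circles for E12.5 and filled squares for E14.5, coloured by genotype. Hnf4a, Foxa3 and Prox1 climb along the plasma protein axis, Cebpa and, over a narrower range, Foxa2 do so among the E14.5 arrays but not among the E12.5 arrays.

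Other liver-enriched transcription factors and cofactors, 26 tested, were mixed as well: 12 rose, 4 fell and the median was 0.20. The fatty acid sensor Ppara rose by 1.09 ± 0.08, the oxysterol receptor Nr1h3 by 1.01 ± 0.08, the coactivator Ppargc1a by 0.94 ± 0.08 and the xenobiotic receptor Nr1i2 by 0.90 ± 0.08. The 4 that fell were Dbp, Cebpb, Esrra and Cebpd, named here after their values were seen, by 0.20 to 0.43. Metabolic and transport genes rose in 11 of 16 and fell in 1, and those of smallest p were the bilirubin conjugate exporter Abcc2 (2.38), the bile salt pump Abcb11 (1.33), glycogen synthase Gys2 (2.17) and the urea cycle enzyme Otc (2.06). Of 12 hepatoblast and biliary genes 6 rose and 1 fell, with Gpc3 up by 1.61, Cdh1 by 1.89, Lgr5 by 0.81 and Dlk1 by 0.88.

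Markers of other cells in the suspension moved too. Stellate and mesenchymal genes rose in 6 of 12 and fell in 1, with the matrix genes Lum at 1.91 and Dcn at 2.16 beside Pdgfrb at 0.59 and Lhx2 at 0.45. Erythroid genes rose in 4 of 12 and fell in 1, by at most 0.57 among Hemgn, Tfrc, Rhd and Epb42. Megakaryocyte and platelet genes rose in 3 of 10 and fell in 5, including Ppbp (1.10), Gp5 (0.57), Gp9 (-0.56) and Itga2b (-0.39). Myeloid Mpo (-1.01), Spi1 (-0.99) and Ngp (-1.52) fell while Ctsg rose by 1.66. Foregut, pancreas and gut genes, whose cells also use Foxa1, Foxa2, Onecut1 and Nr5a2, fell in 6 of 11 and rose in 1, with Barx1 at -0.61, Nkx6-1 at -0.35, Ptf1a at -0.39 and Cdx1 at -0.30. The pancreatic factor Ptf1a and the intestinal factor Cdx2 passed the dim level on 4 and 3 of 16 arrays, but Pdx1, of pancreas and duodenum, did on 15 (3.67 to 4.52) and Nkx6-1 on 16 (4.52 to 5.35). The mean of the foregut list was 4.36 to 4.87 at E12.5 and 4.13 to 4.63 at E14.5. The part of these cells in the stage changes of the 9 genes was not tested.

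The study asked how ERG acts with each isoform of GATA1, and against WT over both stages its genotype comparisons called few of these genes. ERG called none of the 9 in limma, with 0.283% of all units called, 84.8% of them higher, or 74.2% with arrays centred. None of the 9 had an unadjusted p under 0.05, against 1250 of all 16258 units. GATA1s called none either, with 3.81% of all units called. Before adjustment 2 members, Hnf4a (-0.34) and Cebpa (0.35), had a p under 0.05, as did 2962 of all 16258 units. In ERG/GATA1s Hnf4a was lower by 0.57 ± 0.15 (adjusted p = 0.0267, 3 of 4 pairs), 1 of 9 against 6.52% of all units called lower. That call was lost without either E12.5 WT array, or the males of E12.5 ERG/GATA1s, E14.5 WT or E14.5 ERG/GATA1s (adjusted p up to 0.116; -0.36 without the E14.5 WT male), and without the 3 arrays of opposed sex markers or the 2 of mixed ones (adjusted p = 0.156 and 0.155). In the same comparison 9 of 29 plasma protein genes were called lower (median -0.55) and 11 of 12 erythroid genes lower, with 8 of 10 megakaryocyte genes called higher and 1 lower and 7 of 17 granulocyte and monocyte genes higher; their part in the Hnf4a difference was not tested. The 3 comparisons share the WT arrays.

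Averages over the stages hid values of opposite sign. At E12.5 the GATA1s difference from WT was -1.04 ± 0.21 for Hnf4a (adjusted p = 0.0312), -0.94 ± 0.28 for Foxa3 (adjusted p = 0.111) and -0.88 ± 0.21 for Prox1 (adjusted p = 0.0572), so that 1 of 9 was called lower, against 0.511% of all units. At E14.5 it was 0.36 ± 0.21 for Hnf4a, 0.38 ± 0.28 for Foxa3 and 0.82 ± 0.21 for Prox1 (adjusted p = 0.0829). Cebpa was 0.96 ± 0.20 higher there (adjusted p = 0.0365), again 1 of 9, against 0.757% of all units called higher. The granulocyte and monocyte list, whose cells share Cebpa, had 0 of 17 called in that comparison in limma and a median difference of 0, while 29 of 29 plasma protein genes were higher in sign with 0 called and a median of 0.52. Of the 10 megakaryocyte genes 6 were called higher there (median 1.07) and 8 at E12.5 (median 1.26). At E12.5, 14 of 29 plasma protein genes were called lower, with Afp at -0.98 and Serpind1 at -1.68. The part of these cells in the Hnf4a and Cebpa differences was not tested.

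Both calls rested on few arrays, and both were lost without the 2 arrays of mixed sex markers (adjusted p = 0.511 for Hnf4a and 0.0824 for Cebpa). Without the E14.5 WT male, which leaves 1 WT array at that stage, the Foxa1 difference at E14.5 was 0.94, against 0.38 on all 16 arrays. The Hnf4a call at E12.5 was lost without any 1 of the 4 arrays compared (adjusted p up to 0.347). The Cebpa call was lost without the 3 arrays of opposed sex markers (adjusted p = 0.0655) and without any 1 of 9 arrays: both of E12.5 WT, E12.5 GATA1s, E14.5 ERG and E14.5 GATA1s, and the E14.5 WT female, without which the difference was 0.62 (adjusted p = 0.377).

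ERG against WT called none of the 9 at E12.5 in limma, where 0% of all units and 666 units without adjustment passed, nor at E14.5, with 1.69% of all units called. The only member with an unadjusted p under 0.05 was Nr5a2 at E14.5, at -0.49 ± 0.13 (adjusted p = 0.0856), lower in both pairs. Of all 16258 units, 1554 passed without adjustment at E14.5. Among hepatic genes that comparison called 1 of 26 other liver factors, carbohydrate-responsive Mlxipl (-0.93), and 1 of 16 metabolic genes, Abcb11 (-0.98). None of 29 plasma protein genes was called in limma. Of 17 granulocyte and monocyte genes 7 were called lower and 0 higher (median -0.895), and of 10 megakaryocyte genes 4 lower and 1 higher. The part of these blood cells in the Nr5a2 difference was not tested. ERG/GATA1s called none at E12.5, where 0.00615% of all units passed and Hnf4a read -0.89 ± 0.21 (adjusted p = 0.147), nor at E14.5, where 9.16% passed. Without adjustment 2 of the 9 passed at E12.5, Hnf4a and Foxa3, as did 2564 of all 16258 units. At E14.5 none of the 9 passed, against 3409 units.

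Since GATA1s and ERG/GATA1s arrays lay together at E12.5, carriers of the allele were also compared with non-carriers, 4 arrays against 4 at each stage, a comparison added after the values had been seen. At E12.5 carriers were lower in Hnf4a, at 6.27 ± 0.09 (SD, n = 4) against 7.15 ± 0.18, in Foxa3, at 4.87 ± 0.21 against 5.69 ± 0.09, and in Prox1, at 5.09 ± 0.29 against 5.82 ± 0.22. Those 3 of 9 genes had no overlap between carriers and non-carriers, against 8.8% of all units. The differences were -0.89 ± 0.15 for Hnf4a (adjusted p = 0.00408), -0.82 ± 0.19 for Foxa3 (adjusted p = 0.0238) and -0.72 ± 0.15 for Prox1 (adjusted p = 0.0121), with 3.48% of all units called lower. Foxa2, by contrast, read 5.51 on average in both.

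At E14.5 carriers were higher in a partly different set of genes, of which Prox1 alone had been called lower at E12.5. Cebpa was higher in carriers, at 6.28 ± 0.32 (SD, n = 4) against 5.57 ± 0.35, Prox1 at 7.06 ± 0.39 against 6.40 ± 0.34, and Nr5a2 at 6.94 ± 0.27 against 6.52 ± 0.29. The differences were 0.71 ± 0.14 (adjusted p = 0.00571), 0.66 ± 0.15 (adjusted p = 0.0113) and 0.42 ± 0.09 (adjusted p = 0.01), 3 of 9 against 5.87% of all units called higher. The ranges overlapped for all 9 genes, where 16.9% of all units had ranges that did not. Hnf4a (0.25 ± 0.15) and Foxa3 (0.14 ± 0.19) did not pass.

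**Figure D4:**
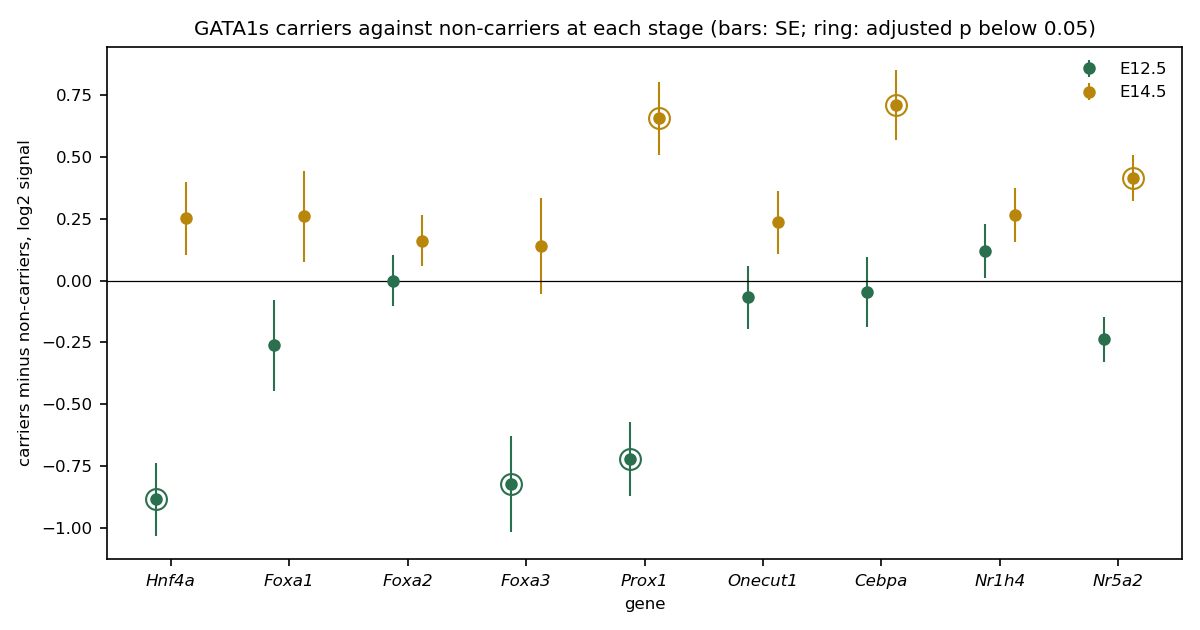
Difference in log2 signal (vertical axis) between carriers of GATA1s (GATA1s and ERG/GATA1s) and non-carriers (WT and ERG), 4 arrays against 4, at E12.5 and E14.5 for each gene; bars are SE and rings mark an adjusted p under 0.05. Hnf4a, Foxa3 and Prox1 lie between -0.89 and -0.72 at E12.5, and all 9 genes lie above 0 at E14.5.

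Plasma protein genes moved alongside at E12.5, and the other hepatocyte lists did so only in part. Of 16 metabolic and transport genes 2 were called lower and 0 higher, with 7 lower and 9 higher in sign (median 0.03). Of 29 plasma protein genes 24 were called lower in carriers and 1 higher, with a median of -1.01, Afp at -0.85 and Itih2 at -1.15, and the list's mean was 7.19 to 7.44 in carriers and 7.76 to 8.45 in non-carriers. Of 12 hepatoblast and biliary genes 2 were called lower and 0 higher, with 7 lower and 5 higher in sign (median -0.155). The 2 were Gpc3 and Dlk1, surface and secreted markers of hepatoblasts, lower by 0.78 and 0.63. Of 26 other liver factors 4 were lower and none higher in limma, with Onecut2 at -0.69 and Ppargc1a at -0.57. In sign 17 of these factors were lower and 9 higher (median -0.10). Of the blood cell lists, none of 12 erythroid genes was called in limma (11 lower in sign, median -0.23), while 9 of 10 megakaryocyte genes were called higher in carriers (Treml1 1.19, Mmrn1 2.73) and 7 of 17 granulocyte and monocyte genes (S100a9 1.12, Lyz2 0.69). At E14.5, 3 of 29 plasma protein genes were called higher (F10 0.85, Apoa2 0.84) and 6 of 16 metabolic genes, led by the urea cycle enzyme Cps1 (2.66) and Asl (0.63). There 8 of 10 megakaryocyte genes (Itgb3 1.93, Pf4 1.63) and 11 of 17 granulocyte and monocyte genes (Prtn3 1.12, Mpo 0.93) were called higher in carriers, beside 10 of 12 erythroid genes called lower (Rhd -0.89, Ermap -0.67). The mean of the granulocyte and monocyte list was 6.79 to 7.67 in E14.5 carriers and 6.09 to 7.33 in non-carriers, and that of the megakaryocyte list 8.38 to 9.01 and 7.36 to 7.65. The part of these blood cells in the differences of the 9 genes, Cebpa among them, was not tested.

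These calls thinned when arrays were left out. Without the 3 arrays of opposed sex markers, 2 of which are E12.5 carriers, none of the 9 was called at E12.5, though the differences were -0.71, -0.57 and -0.73 for Hnf4a, Foxa3 and Prox1 (adjusted p = 0.15, 0.304 and 0.192), and 1, Nr5a2, was called at E14.5. Leaving out single arrays cost Foxa3 its E12.5 call for every E12.5 array but the ERG/GATA1s female, and Prox1 for the females of E12.5 WT, ERG and GATA1s and the male of E12.5 ERG/GATA1s. At E14.5 Prox1 and Nr5a2 were lost without the ERG male. Without the 2 arrays of mixed sex markers, Foxa3 was lost at E12.5 (adjusted p = 0.104), and Prox1 and Nr5a2 at E14.5 (adjusted p = 0.0595 and 0.085).

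Whether the genotype differences changed between stages was tested directly. An F test over the stage by genotype terms called Prox1 (adjusted p = 0.00674), Nr5a2 (adjusted p = 0.0127) and Hnf4a (adjusted p = 0.0267), 3 of 9 against 2.42% of all units. The GATA1s effect of Prox1 was 1.69 ± 0.30 higher at E14.5 than at E12.5 (adjusted p = 0.0397), 1 of 9 against 0.308% of all units called higher. For Hnf4a the same term was 1.40 ± 0.30 (adjusted p = 0.0721), for Foxa3 1.32 ± 0.39 (adjusted p = 0.205) and for Cebpa 1.22 ± 0.29 (adjusted p = 0.0965). The ERG term called none of the 9 in limma, with Nr5a2 at -0.65 ± 0.18 (adjusted p = 0.282), its only unadjusted p under 0.05. The ERG/GATA1s term called none either, with Prox1 at 0.60 ± 0.30 (adjusted p = 0.455). Hnf4a had its only unadjusted p under 0.05, at 0.64 ± 0.30 (adjusted p = 0.414). Of all 16258 units, 1234 passed without adjustment in the ERG term and 1949 in the ERG/GATA1s term. Between carriers and non-carriers the term was 1.38 ± 0.21 for Prox1 (adjusted p = 0.00462), 1.14 ± 0.21 for Hnf4a (adjusted p = 0.0133) and 0.65 ± 0.13 for Nr5a2 (adjusted p = 0.0201), 3 of 9 against 1.6% of all units called higher, which made up 71.4% of calls, or 59.8% with arrays centred.

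All of these interaction calls were lost without the 3 arrays of opposed sex markers, where the carrier terms were 1.36 for Prox1, 0.86 for Hnf4a and 0.72 for Nr5a2 (adjusted p = 0.224, 0.33 and 0.214). Without the 2 arrays of mixed sex markers, Prox1 alone was called in the F test and between carriers and non-carriers, and its GATA1s term was lost (1.93, adjusted p = 0.145). The GATA1s term of Prox1 held only without the E12.5 ERG arrays, the E12.5 ERG/GATA1s arrays or the E14.5 WT male. In the F test Prox1 was lost without the E12.5 GATA1s female, Nr5a2 without either E12.5 GATA1s array or the E14.5 ERG male, and Hnf4a without any 1 of both E12.5 GATA1s, both E14.5 GATA1s and both E14.5 ERG arrays, the E12.5 WT male and the E12.5 ERG female. In the carrier comparison Hnf4a was lost without the E12.5 GATA1s male, and Nr5a2 without any 1 of 8 arrays. These were the E12.5 WT female, the E12.5 and E14.5 ERG males, both of E12.5 GATA1s, the E14.5 GATA1s male and both of E14.5 ERG/GATA1s. Other hepatocyte genes had the same pattern on all 16 arrays. The carrier term called 22 of 29 plasma protein genes higher and 0 lower (median 1.305), and the GATA1s term 7 of 29 (median 1.725). The carrier term also called higher 4 of 26 other liver factors, 3 of 16 metabolic genes and 3 of 12 hepatoblast and biliary genes. Of 17 granulocyte and monocyte genes it called 3 higher.

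The order of the 8 groups summed these patterns up for each gene. Hnf4a, Foxa3, Prox1 and Nr5a2 all ran from E12.5 GATA1s at the bottom, through E12.5 ERG/GATA1s, to E14.5 GATA1s at the top, at 6.19 to 8.24, 4.71 to 7.32, 4.87 to 7.38 and 5.29 to 7.17. In Foxa3 the lowest 2 groups were clear of each other and of the next, and the upper 4 groups overlapped their neighbours. Nr5a2 had E14.5 ERG, at 6.28, clear of the groups on either side. Onecut1, Cebpa, Nr1h4 and Foxa1 also had E14.5 GATA1s on top, at 5.91, 6.55, 4.48 and 5.58. In Onecut1 and Cebpa it was clear of the next group. In Nr1h4, near the dim level, its pair ran from 4.17 to 4.79, barely above the 4.15 of the E14.5 ERG/GATA1s male. Gaps between neighbouring pairs of arrays were not counted over all units, so they only describe these arrays. Foxa2 ran the other way, from 5.18 in E14.5 ERG to 5.54 in E12.5 GATA1s, and every neighbouring pair of groups overlapped, as it did for Foxa1.

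Among themselves, Hnf4a and Foxa3 were the most alike over the 16 arrays (r = 0.962), and their residuals after group means and labelled sex also went together (r = 0.868). Prox1 and Nr5a2 had r = 0.932 over the arrays but -0.09 in residuals, so the pair shared its group means and not the scatter within groups. Foxa1 showed the reverse: with Foxa3 its r was 0.38 over the arrays and 0.888 in residuals, where the E14.5 WT pair, with Foxa1 parted by 1.22 and Foxa3 by 1.16, weighs most. Residuals within a pair of arrays mirror each other, so they hold fewer independent values than arrays.

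The genes of most similar pattern, among 15733 with 1 symbol and by r over the 16 arrays, were as follows. For Hnf4a they were Cpn1 (0.982), Serpinf1 (0.981) and Lcat (0.981), and for Foxa3 Serpinc1 (0.985), Apoa1 (0.982) and Lect2 (0.975), which are secreted products of the liver. Prox1 lay nearest to Ank2 (0.982), Septin10 (0.979) and the hepatocyte growth factor receptor gene Met (0.978), and Nr5a2 nearest to Agxt2 (0.985), Rbm47 (0.982) and Anks4b (0.978). Cebpa was closest to the gluconeogenic enzyme gene Fbp1 (0.92), Igfbp4 (0.89) and Mgrn1 (0.887), and Onecut1 to Acot3 (0.876), Ces2e (0.854) and Nags (0.84). The nearest genes of Foxa1 were 6330403K07Rik (0.916), Mmab (0.847) and Ergic1 (0.835), those of Foxa2 were Gm5478 (0.906), Trerf1 (0.896) and Abca14 (0.882), and those of Nr1h4 were Gm10030 (0.899), Trim14 (0.894) and Arhgap24 (0.888). The best of 15733 genes is high for any gene, so these values are descriptions.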

How the data were processed

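Total RNA from 16 fetal liver suspensions was hybridised to Affymetrix whole-transcript arrays. The authors deposited a table of RMA signal on the log2 scale, per the submitters' processing notes; the RMA version and the genome build were not given in the sources, and scanner files were not used.

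Of 28270 probe sets, 21780 were paired with 1 symbol, 1617 with several and 4873 with none. The probe set of highest mean stood for each symbol, and probe sets that reached more than 3.74, the 30th percentile of the table, on 2 or more arrays made 16258 test units. One model in limma 3.58.1 (R 4.3.3) held the 16 arrays: 8 group means, labelled sex, eBayes, two-sided tests and Benjamini-Hochberg adjustment over all units at 0.05. The fit was tested on simulated data. RefSeq promoter windows were searched in Python 3.11.15.

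The 9 genes, the 10 marker lists and the naming rule were chosen with earlier results of these data known. The rule took all 9 genes, the 4 list genes of smallest adjusted p between stages, up to 2 per genotype comparison, and the 3 genes of highest r. Alternatives varied the filter, scaling, covariate, variance model, arrays and reference list.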

Additional observations from a re-analysis of the deposited data

Results flagged for a closer look

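For 3 factors the genotype differences passed a test of change between the stages, on all 16 arrays. By the F test over stage by genotype terms the adjusted p was 0.00674 for Prox1, 0.0127 for Nr5a2 and 0.0267 for Hnf4a. Without the 3 arrays of opposed sex markers these became 0.174, 0.158 and 0.306, none of them called, and without the 2 of mixed ones Prox1 alone was called. Leaving out 1 array lost Prox1 for the E12.5 GATA1s female, Nr5a2 for any 1 of 3 arrays and Hnf4a for any 1 of 8. The GATA1s effect of Prox1 was -0.88 at E12.5 and 0.82 at E14.5, a difference of 1.69. Between carriers and non-carriers of GATA1s, a comparison added after the values were seen, the effect at E14.5 minus that at E12.5 was 1.38 for Prox1, 1.137 for Hnf4a and 0.652 for Nr5a2, and these calls too were lost without the 3 arrays. On all 16 arrays the same comparison also called 22 of 29 plasma protein genes higher (median 1.305), so the pattern was not particular to these 3 factors. No cause was tested.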

How the results depend on the processing

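The rises of Hnf4a, Foxa3, Prox1 and Nr5a2 between stages passed under every alternative run. The other calls moved more, and unless stated the cause was not tested. Counts in this section are of the 9 genes alone, without the share of all units beside them. They show only whether calls held. With arrays centred, 3331 of all 16258 units were called higher between stages and 8017 lower, against 4718 and 4417 in the main fit. Of the 9 genes, 8 were called between stages, and 5 with arrays centred or without the 3 arrays of opposed sex markers. Without those 3, which leaves fewer samples, calls went to 1 for stage in ERG/GATA1s, 0 for ERG/GATA1s over both stages, 0 for GATA1s at E12.5 and at E14.5, 0 for stage by GATA1s and for the F test, 0 and 1 for carriers at E12.5 and E14.5, and 0 for stage by carriage, which had 1 with Y-linked signal as covariate. With only the arrays compared, calls were 0 for stage in WT and in ERG, 0 for ERG/GATA1s over both stages, 0 for GATA1s at either stage, 0 for stage by GATA1s and 1 for ERG/GATA1s at E12.5. That alternative could not be fitted for the F test or the plasma reference.

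Without the 2 arrays of mixed sex markers, an alternative chosen after seeing the data, calls were 1 for stage in WT and in ERG, 0 for ERG/GATA1s over both stages, 0 for GATA1s at E12.5 and at E14.5, 0 for stage by GATA1s, 1 for carriers at E14.5, 1 for stage by carriage and 1 for the F test. Array weights gave 0 for ERG/GATA1s over both stages, 2 for GATA1s at E12.5, 0 at E14.5 and 2 for stage by GATA1s. GATA1s at E12.5 had 0 without the filter and 2 with quantile scaling, centring or a robust trend. GATA1s at E14.5 and stage by GATA1s each had 0 without the filter, 0 without the sex term and 2 with centring.

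With 1 array left out in turn, calls ranged from 1 to 4 for stage in WT and 0 to 2 in ERG. They ranged from 0 to 1 for GATA1s and 0 to 2 for ERG/GATA1s over both stages. At E12.5 they were 0 to 3 for GATA1s and 0 to 1 for ERG/GATA1s. At E14.5 they were 0 to 1 for ERG, 0 to 5 for GATA1s and 0 to 1 for ERG/GATA1s. Stage by GATA1s gave 0 to 5, carriers 1 to 3 at E12.5 and 1 to 5 at E14.5, stage by carriage 1 to 6 and the F test 0 to 5. The counts of 5 and 6 came without the E14.5 WT male, and the 1 for ERG at E14.5 without an E12.5 ERG/GATA1s array.

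The Foxa1 change turned to -0.067 with quantile scaling, -0.128 with centring, -0.132 with Y-linked signal and -0.154 without the 3 arrays, and lay between -0.121 and 0.159 with 1 array left out. Relative to the metabolic list, whose mean lay near the dim level at E12.5, some changes turned positive. They were 0.267 for Hnf4a, 0.832 for Foxa3, 0.44 for Prox1 and 0.424 for Nr5a2. The stricter filter removed Nr1h4, and no member had another probe set to try. Signal over background limits Nr1h4 most.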
